A study of Mus musculus with 16 samples.

Results

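Chromatin accessibility was compared on day 3 of neural differentiation between wild-type (WT) cells treated with CHIR99021 (CHIR) and untreated cells carrying a catalytically dead *Tet1* (MUT). The comparison used 4 of the 16 ATAC-seq libraries of the series, chosen by their labels, 2 in each group. ATAC-seq marks open chromatin by the sites at which a transposase can insert into DNA. In each library the 50000 distinct peak intervals with the highest −log10 p were kept. A region was called open in a library when at least 1 of its bases lay under a kept interval. The series gave 80585 regions, each made of merged windows around peak summits and present in at least 2 of the 16 libraries. Regions open in both CHIR libraries and in neither MUT library were called gained, and the reverse pattern was called lost. By this rule 8702 regions, 10.8% of all regions, were gained with CHIR, and 7361 regions, 9.13%, were lost.

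All lines were mouse embryonic stem cells labelled B6129S6F1 Tet1<tm1Koh>. They had been grown in serum, depleted of feeder cells and differentiated towards anterior neural progenitors in N2B27 medium with bFGF. The CHIR group held the WT lines WT7 (replicate 1) and WT34 (replicate 2), which received 3 µM of CHIR from day 2. The MUT group held CM59 (replicate 1) and CM69 (replicate 2), clones edited by CRISPR homology-directed repair in the catalytic domain of *Tet1*, both derived from WT7. Each MUT line is therefore a single clone of the line that gave CHIR replicate 1. Genotype and treatment changed together between the groups, so their parts cannot be told apart, and untreated WT7 and WT34, CHIR-treated MUT and vehicle-only cells were not analysed here. The other groups, with 2 libraries each, were untreated WT lines WT70 and WT72, *Tet1* knockout (KO) lines and MUT lines on days 2 and 3, and KO cells with the Wnt inhibitor XAV on day 3. With 2 libraries against 2, an exact two-sided permutation test of a single value cannot go below p = 0.33, so counts were read against the mixed pairings of the same libraries.

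CHIR99021 inhibits the kinase GSK3β, which normally marks β-catenin for degradation in the absence of a Wnt ligand. Stabilised β-catenin enters the nucleus and binds TCF/LEF proteins on DNA, where it switches on targets that include the pathway's own feedback inhibitors. In the epiblast and in differentiating stem cells, Wnt activity drives primitive streak, mesoderm and posterior fates and opposes anterior neural fate. TET1 oxidises methylated cytosine through its catalytic domain and also binds chromatin independently of that activity.

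The 6 stretches of the mm10 genome below are shown because they pair the sequence features described further on with regions that changed state. The first 3 are gained regions with the highest fold enrichment among the genes named by rule that hold a TCF/LEF match. The last 3 are the corresponding lost regions with a TEAD match. Each is 121 bases of the plus strand, 5′ to 3′, with the match in capitals.
Tenm2, chr11:36605115-36605235: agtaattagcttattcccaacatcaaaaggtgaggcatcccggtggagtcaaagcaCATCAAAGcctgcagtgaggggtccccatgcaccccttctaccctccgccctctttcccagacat
Dkk1, chr19:30461856-30461976: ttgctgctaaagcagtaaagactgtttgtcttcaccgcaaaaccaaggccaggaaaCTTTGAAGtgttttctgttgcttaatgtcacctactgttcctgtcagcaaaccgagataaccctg
Tenm4, chr7:96120897-96121017: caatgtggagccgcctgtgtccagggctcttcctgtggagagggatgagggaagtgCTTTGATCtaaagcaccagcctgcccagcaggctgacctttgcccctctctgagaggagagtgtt
Tet1, chr10:62902942-62903062: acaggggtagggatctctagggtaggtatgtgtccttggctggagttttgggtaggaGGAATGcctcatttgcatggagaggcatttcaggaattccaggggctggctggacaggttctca
Grhl2, chr15:37198054-37198174: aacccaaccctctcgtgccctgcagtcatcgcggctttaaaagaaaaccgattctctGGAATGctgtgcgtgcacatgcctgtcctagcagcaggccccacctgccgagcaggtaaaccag
Gata3, chr2:9856046-9856166: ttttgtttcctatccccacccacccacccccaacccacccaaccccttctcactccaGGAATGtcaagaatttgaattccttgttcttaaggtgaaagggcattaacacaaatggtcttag

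Positions of regions are given as the offset of the region's centre in bp from the nearest protein-coding transcription start site (TSS), negative when upstream. Values given per region are deposited fold enrichments over background at the overlapping peak, in the order WT7, WT34, CM59, CM69. The gained region of *Tenm2*, a teneurin cell adhesion gene, lay in an intron at 72558 bp and had fold enrichments of 14.6 and 14.4 in the CHIR libraries. Neither MUT library had any deposited peak there. The gained region assigned to *Dkk1*, a secreted Wnt antagonist, was intergenic at 87678 bp, with 13.2 and 14.1 in CHIR and no MUT peak. The intergenic region of *Tenm4* at −50286 bp had 12.0 and 15.2 in CHIR and 2.38 and 5.49 in MUT. Among the lost regions, that of *Tet1* at −3904 bp was intronic, with 2.59 and 3.81 in CHIR and 12.7 and 12.8 in MUT. The intergenic lost region of *Grhl2*, an epithelial transcription factor, had 3.74 and 4.64 in CHIR and 11.5 and 11.3 in MUT. That of *Gata3*, a factor of trophoblast and surface ectoderm, was also intergenic, with 3.25 and 2.99 against 10.7 and 8.56.

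The 4 libraries were alike in size. They held between 141026 and 162327 distinct intervals, and the weakest interval kept had a −log10 p of 10.9 to 11.2. Between 49507 and 51668 regions were open in each. Read depth was unknown because the files hold no read counts, and no counting interval could be given. The files hold no expression values, so the labelled cell type was not checked against marker levels.

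A total of 32908 regions (40.8%) were open in all 4 libraries and 11251 (14.0%) in none of them, these being open elsewhere in the series. The 8702 gained and 7361 lost regions were far more numerous than those separating pairs that each mixed CHIR and MUT. Setting WT7 and CM59 against WT34 and CM69 gave 622 regions in one direction and 711 in the other. Setting WT7 and CM69 against WT34 and CM59 gave 644 and 607. The smaller of the gained and lost counts was 10.4 times the largest mixed count. Leaving out each library in turn gave 9912 to 10372 gained and 9368 to 11284 lost regions, fewer libraries having to meet the rule. The gained share of called regions was 54.2% with all 4 libraries and 47.5% to 51.4% with 1 left out, so the small excess of gained regions depended on the libraries used.

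**Figure D1:**
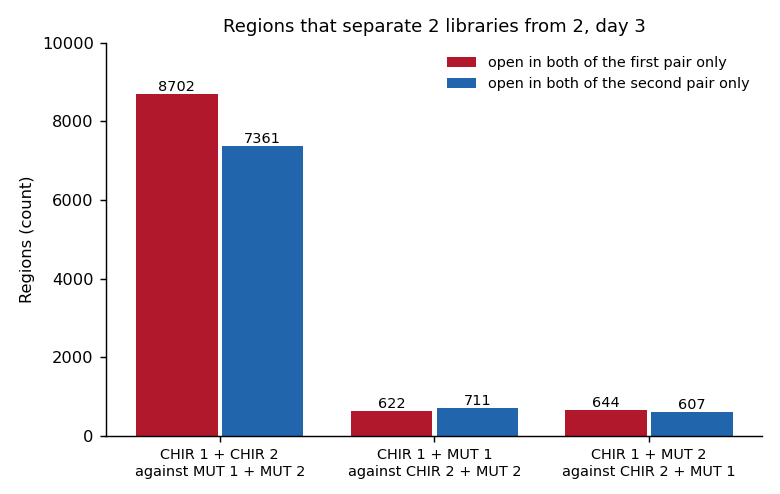
Number of regions (y axis) open in both libraries of one pair and in neither of the other, for CHIR against MUT and for the 2 mixed pairings of the same 4 libraries, where 1 and 2 are replicates. CHIR against MUT gave 8702 and 7361 regions, and no mixed pairing gave more than 711.

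Similarity between libraries was expressed as the number of bases under kept intervals of both libraries divided by the number under those of either. It was 0.708 between WT7 and WT34 and 0.708 between CM59 and CM69. Across the groups it was 0.550 and 0.551 for WT7 with CM59 and CM69, and 0.560 and 0.562 for WT34 with the same clones. The parental line was thus no closer to its own clones than WT34 was. CHIR libraries shared 0.547 to 0.559 with untreated WT on day 3, and MUT libraries shared 0.690 to 0.712 with them. CHIR against untreated WT, which uses the same CHIR libraries, gave 8850 gained and 7272 lost regions. MUT against untreated WT, which uses the same MUT libraries, gave 1525 open in MUT alone and 1562 open in WT alone.

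The libraries of the other groups took no part in the calls and show where gained and lost regions stood without CHIR. Gained regions were mostly closed on day 2: a mean of 7.74% ± 0.284 (SD, n = 2) were open in WT, 6.64% ± 0.122 in MUT and 6.94% ± 0.447 in KO. On day 3 the share was 7.57% ± 0.341 in untreated WT and 7.45% ± 0.122 in KO with XAV. Untreated KO cells on day 3 stood higher, with 23.2% and 16.3% of gained regions open in the 2 lines, a mean of 19.7% ± 4.86. Both KO values lay above all 4 values from WT and from KO with XAV, whose mean was 7.51%, a difference of 12.2 percentage points. The exact two-sided permutation test over the 15 arrangements gave p = 0.133, the smallest it can give here. The KO libraries with and without XAV come from the same pair of lines, KO1 and KO15, so the 6 libraries of this test are not independent. The weakest interval kept had a −log10 p of 12.8 and 6.84 in the KO libraries of day 3, and the part of such differences in peak strength was not tested.

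Lost regions were open in most other libraries. They reached 66.5% ± 2.83 in WT, 70.1% ± 1.62 in MUT and 64.5% ± 3.59 in KO on day 2. On day 3 they reached 75.6% ± 0.355 in untreated WT and 67.9% ± 0.768 in KO with XAV (n = 2 each). Untreated KO cells on day 3 had 58.2% and 55.8% of them open, with a mean of 57.0% ± 1.72. Both values lay below all 4 of WT and KO with XAV, whose mean was 71.7%, and the difference was −14.8 percentage points (exact two-sided permutation test, p = 0.133, the smallest possible). Region by region, 7703 gained regions (88.5%) were open in neither untreated WT library on day 3, and 6268 (72.0%) in neither KO library. Another 998 gained regions (11.5%) were open in both KO libraries. Among lost regions, 4672 (63.5%) were open in both untreated WT libraries and 908 in neither.

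**Figure D2:**
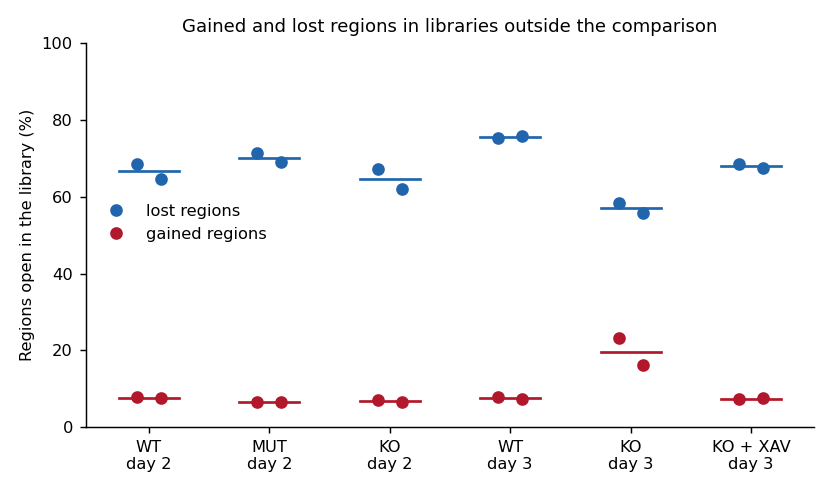
Percent of gained and of lost regions (y axis) open in each library of the groups that took no part in the calls, with points for libraries and horizontal lines for group means. Among the day 3 groups, KO without XAV stood apart, at 23.2% and 16.3% for gained and 58.2% and 55.8% for lost regions.

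Closed did not always mean without a peak. In 3691 gained regions (42.4%) neither MUT library had a deposited peak at any strength, whereas in 882 lost regions (12.0%) neither CHIR library had one. The remaining regions carried a weaker peak in at least 1 library of the closed group. Median fold enrichment at gained regions was 7.15 in WT7 and 7.48 in WT34, against 3.74 in CM59 and 3.66 in CM69 where they had a peak. At lost regions the medians were 6.83 in CM59 and 6.71 in CM69, against 3.82 in WT7 and 4.11 in WT34.

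Both sets lay away from promoters. More than 3 kb from any TSS lay 6805 gained regions (78.2%) and 5466 lost regions (74.3%), compared with 58.3% of all regions and 37.5% of those open in all 4 libraries. Regions that separated the mixed pairs were distal in 65.6% of cases. Gained regions lay at a median of 11225 bp and lost regions at 9749 bp from the nearest TSS, against 5281 bp for all. Promoters, taken as the first 1 kb on either side of a TSS, held 10.8% of gained and 14.4% of lost regions, and 55.0% of regions open in all 4. Introns held 45.8% of gained and 42.0% of lost regions. GC content was 52.2% and 50.2%, lower than the 58.5% of regions open in all 4 libraries, and CpG dinucleotides were sparse, with a median of 1.0 per 100 bp in both sets against 4.0.

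DNA sequence was not used in the calls. Short consensus sequences of transcription factor families were searched on both strands in a window of 150 bp on either side of each region's centre. The TCF/LEF sequence, recognised by the proteins that β-catenin binds, was searched as CTTTGAAC, CTTTGAAG, CTTTGATC and CTTTGATG. It occurred in 19.7% of gained, 3.97% of lost and 6.38% of all regions, and in 5.53% of regions separating the mixed pairs. Distal regions alone gave 20.5% and 4.30%. A total of 214 gained regions (2.46%) and 3 lost regions (0.0408%) held more than 1 match, against 0.418% of all regions. Matches lay near the middle of gained regions, at a median of 46 bp from the centre, against 83 bp in lost and 65 bp in all regions. A match describes the letters in the window and does not show that a factor was bound.

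The share with a TCF/LEF match varied among the gained regions. It was 22.5% where neither MUT library had a peak and 17.6% where at least 1 did. Gained regions open in neither, 1 or both untreated WT libraries on day 3 held it in 20.8%, 12.9% and 6.58% of cases. For the KO libraries of that day the shares were 20.8%, 16% and 17.8%. The share among gained regions open in both untreated WT libraries, 319 regions, was close to the 6.38% of all regions.

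Other families were also unevenly spread. The T-box sequence AGGTGTGA, bound by factors such as Brachyury and Eomes, was in 5.41% of gained, 1.70% of lost and 2.00% of all regions. It reached 9.02% in gained regions open in both KO libraries on day 3 and was 5.04% in those open in neither. The GATA sequence AGATAAG was in 6.57% of gained and 3.50% of lost regions, against 3.30% of all, and the E-box CAGCTG in 33.1% and 24.2%, against 24.3%. Shares for the posterior CDX factors, searched as TTTATGG, were 2.69% and 2.36%, against 2.03% of all regions. ZIC (CAGCAGG) reached 25.2% and 23.5%, with 21.1% of all regions. LIM homeobox sequences (CTAATTAA or CTAATTAG) were in 1.99% and 1.59%, with 1.15% of all regions.

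Lost regions carried other sequences. The TEAD sequence GGAATG, bound by the DNA partners of the Hippo effector YAP, was in 31.1% of lost, 17.3% of gained and 18.5% of all regions, and in 32.6% and 17.8% of distal ones. It too lay near the centre, at a median of 51 bp in lost and 71 bp in gained regions. AP-1 (TGACTCA or TGAGTCA) was in 19.6% of lost and 6.89% of gained regions, against 9.28% of all. SOX (ACAAAGG or ACAATGG) stood at 18.4% and 11.9%, with 12.0% of all regions. OTX (GGATTA), a sequence of anterior homeobox factors, stood at 13.2% and 8.33%, with 8.66% of all. The octamer ATGCAAAT of POU factors was in 5.14% of lost and 1.86% of gained regions, against 2.76% of all. Lost regions with no CHIR peak held the TEAD sequence in 41.3% of cases and the others in 29.8%. AP-1 was in 27.0% of lost regions open in neither untreated WT library on day 3 and in 16.1% of those open in both. Forkhead (TGTTTAC) stood at 5.30% of lost and 4.44% of gained regions, with 3.88% of all, and GRHL (AACCGGTT) at 0.272% and 0.149%, with 0.210%. The promoter sequences KLF/SP (GGGCGGGG) and NFY (CCAATCA) stood at 5.01% and 5.83% of lost and 4.68% and 3.32% of gained regions, with 12.1% and 6.07% of all.

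**Figure D3:**
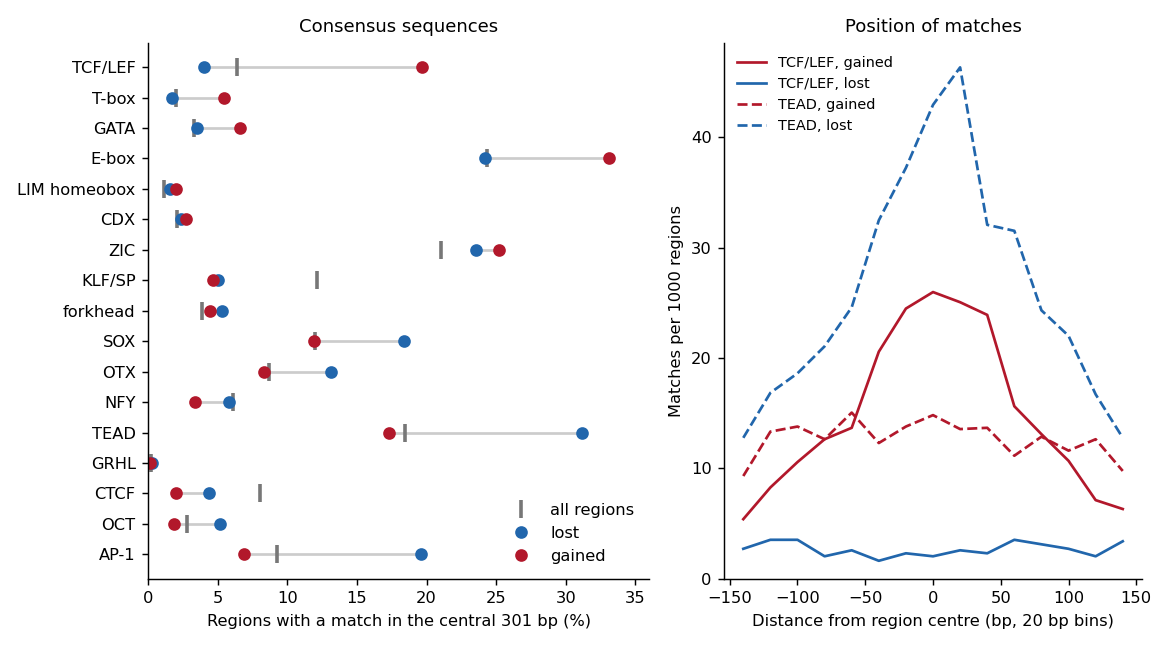
Left, percent of gained, lost and all regions (x axis) that hold each consensus sequence within 150 bp of the centre, where TCF/LEF stood at 19.7% of gained and 3.97% of lost regions and TEAD at 17.3% and 31.1%. Right, number of matches scaled to the size of each set (y axis) by distance from the region centre in 20 bp bins, which peak near the centre for TCF/LEF in gained and for TEAD in lost regions.

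Genes were assigned to regions by the nearest protein-coding TSS within 100 kb. Of the 17396 protein-coding genes with a region, 25.4% had at least 1 gained region and 25.0% at least 1 lost region. Of the regions assigned to these genes, 9.95% were gained and 8.42% lost. Genes with many regions, often those in wide intergenic spans, have more chances to hold a called region, so lists are given both by members and by regions.

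Of the 18 lists, those of the streak and of Wnt output held the largest shares of gained regions with this window. With genes assigned within 500 kb instead, the streak list had 25.8%, the definitive endoderm list 25.6% and the Wnt targets 25.4%, so the order of the leading lists depended on the window. In the primitive streak list 18 of 21 members had a gained and 12 a lost region, and 26.6% of their 177 regions were gained and 7.34% lost. In the list of Wnt targets and feedback genes 16 of 20 members had a gained and 10 a lost region, with 25.8% and 7.89% of 190 regions. The posterior and neuromesodermal list had 14 and 6 of 18 members, and 24.8% and 7.34% of 109 regions. The nascent and lateral mesoderm list had 14 and 10 of 22 members, and 22.0% and 9.52% of 168 regions. These 4 lists share members such as *T*, *Sp5* and *Tbx6*, so their shares are not separate measurements. In the comparison with untreated WT, which uses the same CHIR libraries, the streak list had 50 gained and 10 lost regions, beside 47 and 13 against MUT, and Wnt targets had 49 and 20, beside 49 and 15. A TCF/LEF match was found in 20 of the 49 gained regions of Wnt targets (40.8%), in 14 of 47 of the streak list (29.8%) and in 9 of 27 of the posterior list (33.3%). Over all gained regions the share was 19.7%. Such shares were not particular to these lists. The BMP pathway had 7 of 17 (41.2%), extraembryonic endoderm 4 of 13 (30.8%), neural crest and surface ectoderm 6 of 20 (30%) and naive pluripotency 4 of 14 (28.6%). Wnt ligands, receptors and modulators had 7 of 49 (14.3%) and the Nodal pathway 1 of 14 (7.14%).

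Endoderm genes also held gained regions. In the definitive endoderm list 8 of 17 members had a gained and 6 a lost region, with 20.8% of regions gained and 6.15% lost. In the extraembryonic endoderm list 6 and 3 of 12 members did, with 20.3% and 4.69% of regions. In the trophoblast list, a lineage the culture should lack, 6 of 12 members had a gained and 5 a lost region, with 18.3% and 8.54% of regions. Of its 15 gained regions, 6 belonged to *Hand1* and 4 to *Eomes*, which the mesoderm and streak lists also hold. The others belonged to *Plac1*, with 2, and to *Elf5*, *Tfap2c* and *Tead4*, with 1 each. *Cdx2*, *Gata3*, *Krt7*, *Gcm1* and *Ascl2* had none. Fibroblast and feeder genes, included because the stem cells had been grown on feeders, had 6 members with a gained and 7 with a lost region of 13 with any region, and 14.9% and 13.5% of regions. The part of other cell types in these shares was not tested. Of the 40 Wnt ligands, receptors and modulators 22 had a gained and 21 a lost region, with 15.5% and 10.1% of regions.

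Other lists had more lost regions or were near the share of all genes. In the neuroectoderm list 12 of 32 members had a gained and 13 a lost region, and 7.11% of their regions were gained and 9.88% lost. Of the formative and primed pluripotency genes 8 of 20 had a gained and 13 a lost region, with 11.1% and 13.8% of regions. Of the neural crest and surface ectoderm genes 10 and 13 of 18 did, with 11.4% and 13.7%. Of the naive pluripotency genes 9 and 9 of 17 did, with 11.4% and 9.76%. The Nodal pathway had 6 and 9 of 18 members with 12.4% and 13.3% of regions, and the BMP pathway 9 and 10 of 19 members with 10.7% and 9.43%. YAP and TEAD genes had 5 and 4 of 11 members with 8.70% and 10.9%, and TET and DNA methyltransferase genes 2 and 5 of 10 members with 6.56% and 11.5%. Housekeeping genes had 2 and 3 of 15 members with 2.90% and 7.25%. Only 1 of the 18 gained regions of neuroectoderm genes held a TCF/LEF match.

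**Figure D4:**
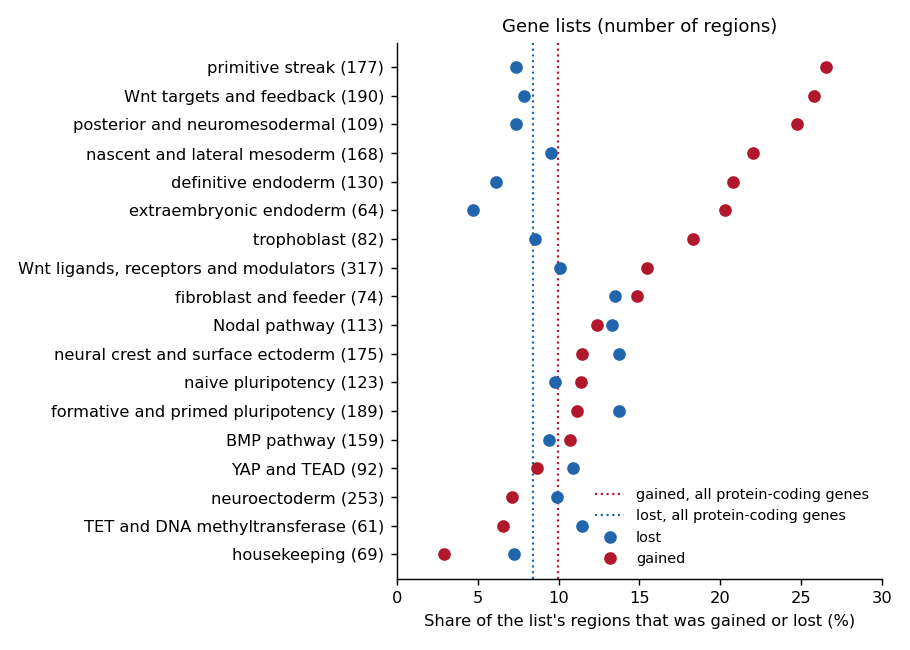
Percent of each list's regions (x axis) that were gained and that were lost, with lines at the shares for all protein-coding genes, 9.95% and 8.42%. The primitive streak list had 26.6% gained and the neuroectoderm list 7.11%.

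Fold enrichments at gained and lost regions are given below as a description. The regions were called on peak strength in the same 4 libraries, so a gap between CHIR and MUT values follows in large part from the calls and is no separate evidence.

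Among the feedback inhibitors of Wnt signalling, *Axin2*, a scaffold of the β-catenin destruction complex, had 8 gained and 1 lost of its 20 regions. At −22542 bp the fold enrichments were 9.04 and 9.33 in CHIR against 2.89 and 3.24 in MUT. At 89405 bp they were 9.24 and 10.0 with no peak in either MUT library. At the gained region at 18204 bp the fold enrichments of the groups overlapped, with 4.80 and 6.36 in CHIR and 5.76 and 3.66 in MUT. No gained region of *Axin2* was open in an untreated WT library on day 3. *Nkd1*, an inhibitor acting on Dishevelled, had 5 gained and no lost of 9 regions. Its strongest, in an intron at −11955 bp, gave 8.45 and 9.75 in CHIR and 5.03 and 3.71 in MUT. *Tnfrsf19* (also TROY), a receptor gene induced by Wnt, had 5 gained and 2 lost of 19 regions. *Rnf43*, a ubiquitin ligase that removes Wnt receptors, had a gained promoter region at 26 bp, with 4.65 and 6.09 in CHIR and no MUT peak. For *Dkk1* a region at −769 bp was gained, with 3.69 and 4.24 in CHIR and again no peak in MUT.

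The transcription factors of the pathway had both kinds of region. *Lef1*, whose product binds β-catenin, had 8 gained and 3 lost of 22 regions. At −75496 bp it had 14.0 and 14.7 in CHIR, 4.08 in CM59 and no peak in CM69. At the promoter, −651 bp, the values were 3.38 and 4.57 against 1.76 and no peak, a low level of signal in all 4 libraries. The lost region of *Lef1* at 42715 bp had 3.81 and 4.16 in CHIR and 5.90 and 7.61 in MUT. *Tcf7l2* had 8 gained and 2 lost of 22 regions, of which that at −51118 bp had 9.82 and 11.2 in CHIR and no MUT peak. *Tcf7l1*, a repressor of targets in the absence of β-catenin, had 4 gained and 2 lost of 21 regions. Its gained region at −11321 bp had 6.35 and 6.69 in CHIR and no MUT peak. Its promoter region at 1128 bp was lost, with 2.24 and no peak in CHIR and 3.90 and 3.91 in MUT. *Bcl9l*, a coactivator of β-catenin, also lost a promoter region, at −1045 bp, with 2.60 and 2.85 against 3.45 and 3.26. *Sp5*, a zinc finger factor induced by Wnt, had 5 gained and no lost of 9 regions, and 2 of these lay at its promoter. The region at −386 bp had 3.20 and 3.21 in CHIR and no MUT peak, while the distal region at −31041 bp, which held a TCF/LEF match, had 7.52 and 8.59 against 5.44 and 3.96.

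Receptors and secreted modulators varied. *Sfrp1*, a secreted Wnt-binding protein, had 5 gained and 1 lost of 11 regions, the strongest at 40539 bp with 11.5 and 11.7 in CHIR and no MUT peak. The receptor gene *Fzd10* had 5 gained and 1 lost of 13 regions, including 10.7 and 8.61 against 3.15 and 2.95 at 5935 bp. *Fzd7*, the receptor gene with the most lost regions, had 5 lost and 4 gained of 16. At −88182 bp its values were 3.53 and 3.32 in CHIR and 8.94 and 8.05 in MUT. At −30531 bp they were 8.84 and 10.6 in CHIR with no MUT peak, so regions of the same gene were called in both directions. Promoter regions were gained at *Fzd8* and lost at *Wls*, needed to secrete Wnt proteins, at *Wnt2b* and at *Lgr5*, an R-spondin receptor gene. The *Wls* region had 4.87 and 5.98 in CHIR and 10.5 and 7.01 in MUT. That of *Lgr5* had 3.10 and 4.08 against 4.46 and 4.21, so the highest CHIR value lay close to the lower MUT value.

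Streak and posterior genes came next. At *T*, which encodes Brachyury, the intronic region at −12622 bp had 12.0 and 13.7 in CHIR and 2.74 and 2.67 in MUT. It was open in 0 libraries of the other 6 groups. *Lhx1*, a homeobox gene of the streak and axial mesoderm, had 7 gained and 1 lost of 14 regions. Its region at −67576 bp had 8.35 and 8.14 in CHIR and 5.17 and 4.00 in MUT, and its promoter region at 506 bp was lost, with 2.28 and no peak against 3.36 and 3.49. *Cdh2*, the N-cadherin gene that rises when epiblast cells become mesenchymal, had 5 gained and no lost of 13 regions, with 8.45 and 11.6 in CHIR and no MUT peak at −48762 bp.

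Gained promoter regions were found at *Evx1*, *Hoxb1*, *Msgn1*, *Nkx1-2*, *Noto*, *Sp8* and *Tbx6*, all active in the streak or the posterior embryo. Some of them were also open without CHIR. The *Nkx1-2* region was open in both untreated WT libraries on day 3, and those of *Noto* and *Sp8* in 1 of them. That of *Noto* was open in both libraries of WT, MUT and KO on day 2. *Nkx1-2* and *Noto* had no region gained against untreated WT. At *Msgn1*, a regulator of presomitic mesoderm, the region at −221 bp had 6.28 and 7.35 in CHIR, 3.06 in CM59 and no peak in CM69. *Msgn1* had 2 gained and 2 lost of 5 regions, and *Sp8* 3 gained and 2 lost of 11. At *Evx1*, a homeobox gene of the streak, the region at −17 bp had 3.59 and 3.86 against 2.42 and 3.22, and it was open in both KO libraries on day 3. At *Tbx6*, which directs paraxial mesoderm, a region at −200 bp was gained, with 3.66 and 3.09 and no MUT peak, and its neighbour at −699 bp was lost, with 2.53 and 2.46 against 3.36 and 3.70.

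Among mesoderm and endoderm genes, *Cxcr4*, a chemokine receptor gene of migrating mesendoderm, had the most gained regions of the listed genes, 9 of 13, and no lost region. The region at 59416 bp had 12.7 and 9.73 in CHIR, and for 6 of the 9 neither MUT library had a peak. *Foxc1*, a mesoderm transcription factor gene, had 8 gained and 2 lost of 15 regions. Its region at −22040 bp had 9.29 and 13.6 in CHIR with no MUT peak and held a TCF/LEF match. *Hand1*, a gene of lateral and extraembryonic mesoderm, had 6 gained and 1 lost of 13 regions, the strongest at −71541 bp with 12.3 and 9.79 in CHIR and no MUT peak. *Cer1*, a secreted Nodal and Wnt antagonist of the anterior endoderm, gained its promoter region at −92 bp, with 6.02 and 7.92 against 3.58 in CM59 and no peak in CM69. That region was open in both KO libraries on day 3 and in neither untreated WT library. *Mef2c*, a muscle and neural transcription factor gene, had 3 lost and 2 gained of 18 regions.

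Neural genes were mixed. *Irx3*, a homeobox gene of the neural tube posterior to the forebrain, had 6 gained and no lost of 9 regions, of which that at −65170 bp had 11.0 and 11.4 in CHIR, 2.72 in CM59 and no peak in CM69. Promoter regions of the midbrain and hindbrain genes *En1* and *En2* were gained, with 3.92 and 3.72 against 3.24 and 2.90 at *En1*. *En2* also had 2 lost of 8 regions, with 3.6 and 2.4 in CHIR against 7.8 and 9.4 in MUT at 11060 bp. *Sox2*, shared by pluripotent and neural cells, had 3 lost and no gained of 17 regions. At 41894 bp it had no peak in WT7, 5.23 in WT34, and 7.17 and 7.93 in MUT. *Sox1*, an early neural plate gene, had 3 lost and no gained of 13 regions, all within the same stretch around 83038 bp, where neighbouring regions in part shared peak intervals and so do not count as separate. *Lhx5*, a forebrain homeobox gene, had 3 lost and 1 gained of 7 regions. Its lost region at −22027 bp had 5.52 and 4.86 against 8.73 and 9.17, and the gained one at −73241 bp had 9.53 and 11.4 against 3.40 and 3.05.

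Epithelial and pluripotency genes moved in both directions, and those named by rule are described here with genes of their lists that went the other way, which were picked after their values were seen. *Grhl2* had 5 lost and 1 gained of 22 regions, and *Trp63*, a master gene of surface ectoderm, 3 lost and no gained of 5. At the *Trp63* region at −54952 bp the values were 4.22 and 4.49 in CHIR and 7.47 and 11.3 in MUT. *Grhl3*, of the same family as *Grhl2*, had 4 gained and no lost of 12. *Esrrb*, a naive pluripotency gene, had 3 lost and 1 gained of 18 regions, whereas *Klf5* had 1 lost and 3 gained of 10, *Lifr*, the LIF receptor gene, no lost and 3 gained of 9, and *Prdm14* no lost and 2 gained of 11. The naive list as a whole held 14 gained and 12 lost regions. Promoter regions were lost at *Pou5f1*, which encodes OCT4, at *Tdgf1*, a Nodal coreceptor gene, at *Foxh1*, a partner of SMAD proteins, and at *Sox3*, *Etv5* and *Lin28a*. At *Pou5f1* the region at −40 bp had 2.02 and 2.49 in CHIR and 3.44 and 3.31 in MUT. At *Foxh1* the region at −74 bp had 2.66 and 3.09 against 4.36 and 3.64.

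In the TGF-β family pathways, *Smad2*, a Nodal effector, had 5 gained and 1 lost of 12 regions, with 12.3 and 10.1 in CHIR, no peak in CM59 and 3.35 in CM69 at −55633 bp. *Smad3*, the related effector, had 3 lost and 1 gained of 10 regions, with 5.29 and 5.56 against 10.6 and 10.0 at −35891 bp. The inhibitory *Smad7* had 4 lost and 4 gained of 24 regions, and *Id2*, a target of BMP signalling, 3 lost and no gained of 8. *Tead1*, which binds the TEAD sequence, had 4 lost and 3 gained of 26 regions, and *Amotl2*, a YAP target and inhibitor, 3 lost and 2 gained of 16. Both lost a promoter region. *Amotl2* had 2.11 and 2.07 in CHIR and 3.38 and 3.72 in MUT at −11 bp.

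At *Tet1*, the gene edited in the MUT lines, 1 of 11 regions was lost and none was gained. The lost region, shown above, lay at −3904 bp from the nearest start within an intron of a longer transcript, not in the edited exon. It was open in both libraries of each of the other 6 groups, so the CHIR libraries were the only ones in which it was not open. A neighbouring region of *Tet1* at −2887 bp, neither gained nor lost, went the other way, with 4.86 and 8.26 in CHIR and 2.11 and 3.11 in MUT, a log2 difference of 1.35 ± 0.29 (SE, limma, adjusted p = 0.0259). Of the DNA methyltransferase genes, *Dnmt1* had a gained promoter region at 120 bp, with 4.97 and 5.81 in CHIR and no MUT peak. *Dnmt3a* gained one at 696 bp, with 6.41 and 5.96 against no peak in CM59 and 2.71 in CM69. Both genes also had lost regions: *Dnmt1* had 1 gained and 1 lost of 5, and *Dnmt3a* 3 gained and 2 lost of 21. At −6392 bp *Dnmt1* had no peak in WT7 and 3.34 in WT34, against 9.92 and 8.48 in MUT. The feeder gene *Col1a1* had 3 lost and 1 gained of 11 regions, and *Pdgfrb*, also in the fibroblast list, gained a promoter region. The *Pdgfrb* region had 4.77 and 4.74 in CHIR against 3.93 and 3.70 in MUT. It was also open in both untreated WT libraries on day 3 and in both libraries of WT, MUT and KO on day 2. Other promoter genes were *Lats2* on the gained side and *Epha2*, *Fgf15*, *Foxc2* and *Gata3* on the lost side.

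Outside the lists, genes with many regions led in both directions. *Tenm4* had 17 gained and 8 lost of 47 regions, *Gse1* 13 and 3 of 51, and *Rnf220*, a ubiquitin ligase gene, 10 and 2 of 32. *Kif6*, a kinesin gene, had 10 gained and no lost of 16 regions, and *Gabbr2*, a GABA receptor gene, 9 gained and no lost of 21. For 8 of these *Gabbr2* regions neither MUT library had a peak, and the strongest, at 19533 bp, had 12.8 and 13.2 in CHIR. The most lost regions were found at *Nav2*, with 10 lost and 9 gained of 42, *Etl4*, with 9 and 3 of 39, *Sh3bp4*, with 7 and 1 of 13, and *Tenm2*, with 7 and 6 of 26.

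**Figure D5:**
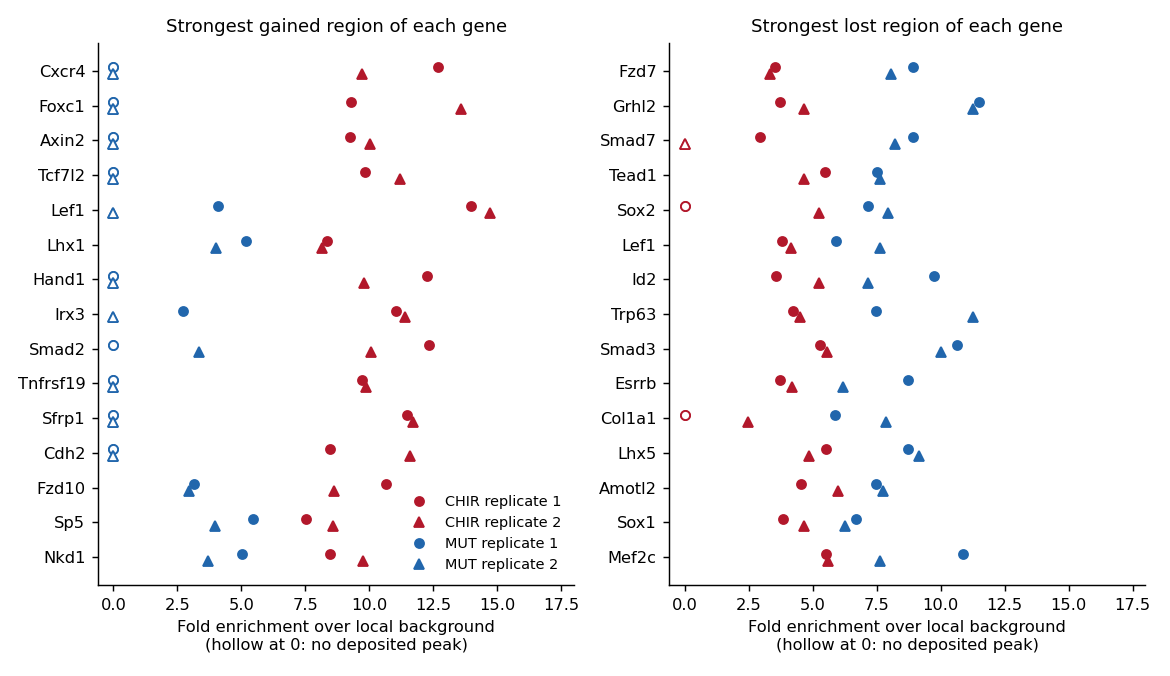
Fold enrichment over local background (x axis) in each of the 4 libraries, with hollow symbols at 0 where the library's list had no peak. Shown are the strongest gained (left) and strongest lost (right) region of the 15 listed genes with the most such regions. The CHIR symbols lie to the right of the MUT symbols for gained regions and to the left for lost ones in every gene shown, a separation that follows in large part from how the regions were called.

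Counts per gene followed the number of intervals kept. Across the other settings *Axin2* had 3 to 14 gained regions, *Cxcr4* 3 to 15 and *Sp5* 0 to 7, with none for *Sp5* when 25000 intervals were kept, and *Sox2* had 0 to 8 lost regions. Leaving out 1 library also moved some counts by over 1.5 times. Lost regions numbered 8 for *Tead1* without CM69, 8 for *Fzd7* without WT7, 6 for *Esrrb* without WT7 and 5 without CM69, 5 for *Lef1* without CM59, and 5 for *Mef2c* without WT7 or without CM59. They numbered 5 for *Amotl2* without WT34 and 5 for *Gse1* without CM59 or without CM69. Gained regions numbered 5 for *Tead1* without WT34 or without CM69 and 5 for *Dnmt3a* without WT7. A named gene with 1 or 2 called regions in a direction had at most 2 more when a library was left out.

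Fold enrichment was compared directly at the 62852 regions with a deposited peak in all 4 libraries, with limma on log2 values. It was higher with CHIR at 2966 regions (4.72%) and lower at 3161 (5.03%) at a Benjamini-Hochberg adjusted p under 0.05. The median difference over all tested regions was 0.01 on the log2 scale. The need for a peak in all 4 libraries let in 39.7% of gained and 69.5% of lost regions, so most gained regions were not tested. Gained and lost regions rest on peak strength in the same libraries, so their fold differences are a description: 2007 of 3458 tested gained regions were higher and 1977 of 5116 tested lost regions lower. Regions open in all 4 libraries lay outside those calls, and 506 of 32908 (1.54%) were higher and 601 (1.83%) lower. The fit took the 4 libraries as independent, although CM59 and CM69 are clones of WT7. Its SE and p therefore do not measure the spread between independent MUT lines. Leaving out any library lowered the counts. Without CM59 0 regions passed limma's adjusted threshold in either direction, with 6140 higher and 5911 lower at an unadjusted p under 0.05. Without CM69 597 were higher and 96 lower, without WT7 1011 and 1497, and without WT34 1501 and 2323.

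Within 1 kb of a coding TSS 264 of 20737 tested regions were higher and 254 lower, against 2313 and 2495 of 33163 regions more than 3 kb from any TSS. Of 439 tested regions within 1 kb of a TSS of listed genes 2 were higher and 3 lower, so most of the promoter regions named above as gained or lost did not pass this test or lacked a peak in a library and were not tested. Over all protein-coding genes 4.26% of tested regions were higher and 4.33% lower. Beside these shares, the primitive streak list had 17 higher and 5 lower of 129 (13.2% and 3.88%), posterior genes 12 and 2 of 87 (13.8% and 2.30%) and Wnt targets 15 and 7 of 149 (10.1% and 4.70%). The nascent and lateral mesoderm list, with 22.0% of its 168 regions gained, had 4 higher and 4 lower of 130 tested (3.08% each). Gained regions that lacked a peak in a MUT library were not tested, so the shares rest on different sets of regions. Neuroectoderm genes had 4 higher and 8 lower of 215 (1.86% and 3.72%), below the shares over all genes in both directions. Fibroblast and feeder genes had 5 higher and 2 lower of 53 (9.43% and 3.77%), and housekeeping genes 1 and 0 of 65.

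The 10 regions of listed genes that ranked first by limma in each direction were mostly gained or lost regions, for which no p is given since the calls used the same libraries. Higher with CHIR, the *T* region at −12622 bp ranked first, with a log2 difference of 2.26 ± 0.19 (SE). It was followed by *Lhx5* at −73241 bp, with 1.72 ± 0.19. *Fbn1*, which encodes the matrix protein fibrillin, was next, with 9.75 and 11.5 in CHIR against 3.40 and 3.66 in MUT at −8844 bp. Regions that were open in all 4 libraries, and so outside the gained and lost calls, also appeared. They are named here because they ranked among the lowest adjusted p, so their differences are selected ones. At *Eomes*, a T-box gene of the streak, the region at −88660 bp had 11.4 and 13.0 against 5.18 and 5.59, a log2 difference of 1.19 ± 0.15 (limma, adjusted p = 0.00542). At *Bmp2*, a BMP ligand gene, the region at 83490 bp had 15.9 and 17.2 against 9.49 and 7.79. The other higher regions belonged to *Axin2*, *Sfrp1*, *Lef1* and *Ywhaz*, and to *Etv4*, an FGF target, at −16122 bp, with 12.2 and 11.9 against 5.59 and 4.65.

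Among the lower regions, *Tet1* at −3904 bp ranked first, with a log2 difference of −2.02 ± 0.22 (SE). *Grhl2* at −34899 bp followed, with −1.43 ± 0.17, and *Gata3* at 17558 bp, with −1.58 ± 0.21. *Eomes* appeared again, lower at −45214 bp, with 4.22 and 3.74 in CHIR against 10.6 and 9.12 in MUT. Lower regions of Wnt genes were those of *Wnt2b* at 18128 bp, with 3.33 and 3.76 against 8.54 and 9.04, of *Wnt8a*, a ligand of the streak, at 9545 bp, with 2.37 and 2.29 against 6.25 and 5.32, and of *Fzd7* at −88182 bp. A pair of neighbouring regions of *Tnfrsf19* near −29358 bp were open in all 4 libraries and lay under the same peak, with 7.40 and 6.87 against 13.0 and 14.1 (limma, adjusted p = 0.00703). A second region of *Grhl2*, at 5683 bp and also open in all 4, had 6.97 and 6.58 against 12.8 and 12.4 (limma, adjusted p = 0.00766). None of these 20 regions passed without CM59, and the 10 lower ones also did not pass without CM69.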

How the data were processed

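ATAC-seq peak lists of 16 libraries, 2 in each of 8 groups, were used, and the 4 libraries of WT with CHIR and of MUT on day 3 were compared. The authors processed reads with the ENCODE ATAC-seq pipeline (trimming, alignment to mm10, removal of duplicates and mitochondrial reads, peak calling in each library). The aligner, the peak caller and their versions were not given in the sources used here. Submitters' processing notes also name DiffBind 3.0.15, HOMER 2 and deepTools 3.4.3. The deposited values per peak are the fold enrichment over local background (a ratio), the −log10 p and the −log10 q, for peaks with a −log10 p of at least 2.0. Ranking by −log10 p favours strong and deeply sequenced peaks, and an equal number of intervals per library removes differences in the number of peaks. Lists of regions from the authors' own comparison of KO with WT were not used. Read depth is unknown, so no counting intervals were computed.

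Each kept summit was extended by 150 bp both ways, overlapping windows were merged, and regions of at least 2 libraries were retained. A region took the nearest protein-coding TSS of the GENCODE vM21 annotation (mm10) within 100 kb, its fold enrichment in a library was that of the strongest overlapping peak, and sequences were read from the RefSeq mm10 genome. Fold enrichments were log2-transformed without a pseudocount, quantile normalised and tested with limma 3.58.1 in R 4.3.3, with the 4 libraries in the fit, the Benjamini-Hochberg adjustment over all 62852 regions and a threshold of 0.05. Shares in libraries outside the comparison were compared by an exact permutation test. Python 3.11.15 with numpy 2.4.6, pandas 2.3.3, scipy 1.17.1 and matplotlib 3.10.9 was used. Both region calling and the limma test were tested on simulated data.

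The members, the 18 gene lists (284 genes), the 17 consensus sequences and the tests were chosen with earlier results of these data known. Named genes were, from the lists, up to 15 with the most gained and up to 15 with the most lost regions, those with a gained or lost region within 1 kb of a TSS, *Tet1*, and the 10 regions with the lowest adjusted p in each direction. A result for a gene that this rule names is not reported here. Outside the lists they were the 5 genes with the most gained and the 5 with the most lost regions. For the sequences, 3 regions of each kind with the highest mean fold enrichment were taken, not on chromosome 18.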

Additional observations from a re-analysis of the deposited data

How the results depend on the processing

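No paired analysis was possible because the CHIR and MUT libraries come from different lines and their replicate numbers mark no shared culture or day. Gained regions outnumbered lost ones under every number of intervals kept. Gained and lost counts were 3938 and 3434 with 25000 intervals per library, 16696 and 13749 with 100000, 21989 and 18099 with every deposited interval, and 19671 and 14803 with every interval at a −log10 q of at least 2. The largest mixed count was 391, 1760, 4875 and 2470 in those settings, so its distance from the calls narrowed as weaker peaks entered. The gained share rose to 57.1% with the −log10 q limit and was 47.5% to 51.4% with 1 library left out, where lost regions numbered 9368 to 11284. With 25000 intervals, gained and lost regions open on day 3 were 8.02% and 76.3% in WT and 7.96% and 69.5% in KO with XAV. With 100000 they were 9.66% and 72.6% in WT, 9.62% and 66.6% in KO with XAV, and 53.7% of lost regions were open in KO. Requiring a covered share of each region, building regions from the 4 libraries alone or ranking by fold enrichment moved neither count by more than 1.5 times.

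In the limma test, median centring, all 8 groups in the fit and log2 of fold enrichment plus 1 kept both counts within 1.5 times. Testing only the regions open in all 4 libraries gave 358 higher and 532 lower, from 32908 regions instead of 62852. With 1 library left out the counts ran from 0 to 1501 higher and from 0 to 2323 lower, and the lone library of a group was then assumed to vary like the other group. The 0 arose without MUT replicate 1 (6140 higher and 5911 lower at an unadjusted p under 0.05), and the cause was not tested.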

Other observations

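The CTCF consensus, the sequence of a factor that organises chromatin loops, was spread unlike the other sequences. It was found in 1.99% of gained and 4.39% of lost regions, against 8.03% of all regions and 9.03% of those open in all 4 libraries. Regions that separated the mixed pairings held it in 16.1% of cases. No explanation was tested.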
